A study of Rattus norvegicus with 9 samples.

Results

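Enzymes that build mevalonate, squalene and cholesterol were examined in mRNA-seq of rat bone. The set comprised 9 genes, Hmgcs1, Mvd, Idi1, Fdps, Fdft1, Sqle, Lss, Cyp51 and Dhcr7, taken by gene symbol from a count table and an FPKM table of 23026 genes, and all 9 passed the filter on low counts that left 16874 genes for testing. Female Sprague–Dawley rats, bought at 8 weeks of age and acclimated for 1 week, formed 3 groups of 3 libraries. Sham rats lost fat beside the ovary but kept their ovaries, and OVX rats were ovariectomized. OVX-AS-IV-High rats, called the treated rats below, were ovariectomized and received AS-IV (Astragaloside IV, a saponin of Astragalus) at 80 mg/kg. Gavage began 6 weeks after surgery and lasted 8 weeks. By the labels, the OVX rats received 1% CMC-Na as vehicle, whereas those of Sham replicates 1, 2 and 3 read 1%, 2% and 3%. The paper, however, gives 1% CMC-Na as the vehicle of both groups and as the medium of the AS-IV. The removal of the ovaries models loss of all ovarian hormones at once in young adult animals, and no ovary-intact rats received AS-IV in these libraries.

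Animal cells make cholesterol from acetyl-CoA through mevalonate, activated isoprene units, squalene and lanosterol. When sterols in the membrane of the endoplasmic reticulum run low, the transcription factor SREBP-2 is released by proteolysis and switches on nearly every gene of the route. In bone the route is best known from osteoclasts, in which nitrogen-containing bisphosphonates block farnesyl diphosphate synthase, the product of Fdps, and so deprive small GTPases of their lipid anchors.

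Each library held between 34874880 and 37298250 counts, and TMM factors lay between 0.974 and 1.03. The bone label was borne out by all 7 osteoblast markers being measured, with a summed level of 4306 to 13283 CPM (counts scaled to a common library total) in Sham, 10678 to 17187 in OVX rats and 5153 to 14149 in treated rats. Other tissue was present too, since the summed level of 9 skeletal muscle markers ranged from 523 to 8649 CPM across the libraries. In bulk RNA, fewer cells of a type and less RNA per cell cannot be told apart. Replicates are taken to be separate rats. The labels do not say so, but the paper describes independent biological replicates in each group. Otherwise p-values would measure only the spread between samples.

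The pathway was expressed at intermediate levels in bone, with Fdps well above the rest. Per kilobase of transcript, Fdps reached 28.2 ± 2.48 FPKM (mean ± SD, n = 9), and its lowest library lay above the highest library of each of the other 8 genes. A middle tier followed with Mvd at 10.8 ± 1.19, Cyp51 at 10.7 ± 0.72, Fdft1 at 10.2 ± 1.37 and Hmgcs1 at 9.49 ± 2.10 FPKM. Idi1 at 5.92 ± 1.49, Lss at 5.53 ± 0.67, Sqle at 4.73 ± 1.03 and Dhcr7 at 4.57 ± 0.64 FPKM formed the lowest tier. Below Fdps, every pair of neighbours in this order overlapped in range, although Hmgcs1 lay above Idi1 within each of the 9 libraries. Relative to all tested genes, Fdps was higher than 84.3% of them and Dhcr7 than 46.8%. No level rested on few reads: counts ran from 261 for Sqle to 2165 for Hmgcs1, and the counting error at each gene's lowest library was between 2.89% and 6.19%.

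Hmgcs1 condenses acetyl-CoA with acetoacetyl-CoA to HMG-CoA, the precursor of mevalonate. Its level was 9.48, 9.04 and 7.15 FPKM in Sham, 9.81, 8.08 and 9.34 in OVX rats and 14.4, 10.2 and 7.84 in treated rats. The groups overlapped, and the high mean of the treated group, 10.8 ± 3.32 FPKM (SD, n = 3), came mostly from its replicate 1.

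Mvd decarboxylates mevalonate diphosphate to isopentenyl diphosphate. It stood at 12.5, 12.2 and 9.77 FPKM in Sham, 11.6, 10.7 and 10.0 in OVX rats and 11.4, 9.84 and 9.04 in treated rats. All 3 groups overlapped. Idi1, which interconverts isopentenyl and dimethylallyl diphosphate, stood at 4.96, 4.39 and 6.18 FPKM in Sham, 5.39, 4.97 and 6.0 in OVX rats and 6.47, 9.47 and 5.45 in treated rats. Here the treated group's replicate 2 was the high library, and without it the range of that group lay close to those of the others.

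Fdps joins these units to farnesyl diphosphate, from which both sterols and protein prenyl groups derive. Its levels of 26.3, 27.3 and 26.3 FPKM in Sham, 32.2, 27.4 and 28.3 in OVX rats and 25.8, 28.0 and 32.5 in treated rats spanned only 1.26-fold from lowest to highest. Fdft1 commits farnesyl diphosphate to squalene, with 10.5, 12.5 and 10.3 FPKM in Sham, 11.4, 8.98 and 10.8 in OVX rats and 9.21, 7.94 and 9.99 in treated rats. The highest treated library of Fdft1 lay just under the lowest Sham library, whereas OVX overlapped with both groups.

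Sqle, the monooxygenase that forms squalene epoxide and a further control point of the route, gave 3.25, 5.22 and 6.13 FPKM in Sham, 5.78, 4.19 and 4.73 in OVX rats and 3.18, 4.82 and 5.23 in treated rats. It had the widest spread within groups of the set, with the lowest library of 2 groups near 3.2 FPKM. Lss cyclizes the epoxide to lanosterol and gave 6.59, 5.88 and 4.95 FPKM in Sham, 4.60, 6.48 and 5.20 in OVX rats and 5.36, 5.20 and 5.47 in treated rats. Cyp51, the lanosterol demethylase, gave 11.6, 10.4 and 11.2 FPKM in Sham, 10.7, 10.1 and 10.7 in OVX rats and 9.35, 10.9 and 11.6 in treated rats. Groups overlapped for all 3 of these genes, and Cyp51 was the least variable member, 1.20-fold from lowest to highest in CPM.

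Dhcr7 reduces 7-dehydrocholesterol to cholesterol, the last step of the Kandutsch–Russell branch; the same substrate in skin is the precursor of vitamin D3. It gave 4.32, 3.48 and 4.17 FPKM in Sham, 5.19, 5.20 and 5.29 in OVX rats and 4.47, 4.02 and 5.03 in treated rats. The 3 OVX libraries lay close together and above every library of both other groups, which overlapped with each other.

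**Figure D1:**
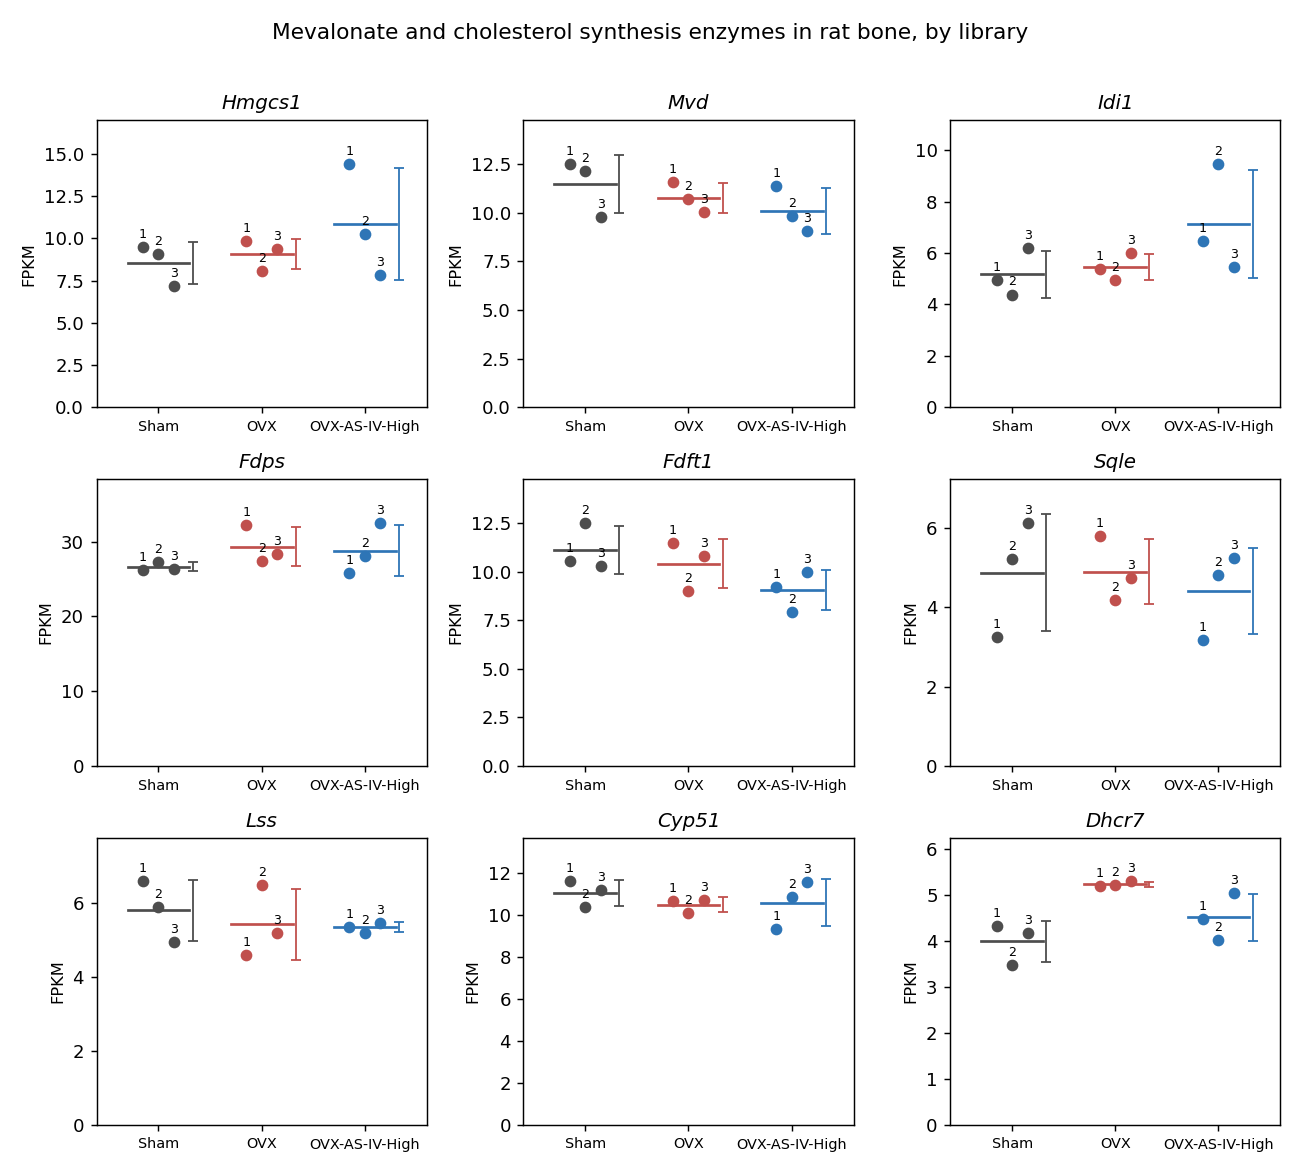
FPKM (vertical axes, each starting at 0) of the 9 enzymes in pathway order, with a numbered point for each replicate, a line for the group mean and a bar of ± 1 SD (n = 3). All OVX libraries of Dhcr7, 5.19 to 5.29 FPKM, lie above all Sham libraries, 3.48 to 4.32 FPKM, and for Fdps the lowest OVX library (27.4 FPKM) lies just above the highest Sham library (27.3 FPKM). The treated group's high values belong to replicate 1 for Hmgcs1 (14.4 FPKM) and replicate 2 for Idi1 (9.47 FPKM).

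The spread of the set lay close to that of other genes. Within groups, the coefficient of variation of CPM had a median of 10.9% over the 9 members, against 11.2% over the 11848 genes with a mean of at least 5 CPM. The 9 FPKM values summed to 88.7 ± 2.24 in Sham, 91.1 ± 5.34 in OVX rats and 90.7 ± 1.27 in treated rats (SD, n = 3 each), so the group means differed by less than the SD of the OVX group.

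The comparison of OVX with Sham asks which transcripts differ after loss of the ovaries. Here and below, a gene passed, or was called, at an unadjusted p under 0.05. Of the 9 enzymes, 1 passed an unadjusted p under 0.05 by the quasi-likelihood test of edgeR, where 16.4% of all tested genes did. That gene was Dhcr7, with a log2FC of 0.37 (SE 0.13, n = 3 per group), a fold of 1.29 with a 95% interval from 1.04 to 1.59. After Benjamini-Hochberg adjustment over all genes in edgeR it did not pass (adjusted p = 0.237). In CPM, Dhcr7 was also the only member whose OVX and Sham libraries did not overlap, as was the case for 23.3% of all genes in either direction, and for Dhcr7 the exact two-sided permutation test gave p = 0.10, the smallest that 3 against 3 libraries allow. In FPKM the groups did not overlap for Fdps either, by a margin of 27.4 against 27.3. The call of Dhcr7 was lost without Sham replicate 2, with a log2FC of 0.30, and without OVX replicate 3, with a log2FC of 0.35.

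The other 8 members had log2FC between -0.12 and 0.11 in OVX vs. Sham. Hmgcs1 stood at 0.06, Idi1 at 0.05, Fdps at 0.11 and Sqle at -0.02, while Mvd, Fdft1 and Lss each stood at -0.12 and Cyp51 at -0.10. The median over the 9 was -0.02 against -0.01 over all genes. Their median absolute log2FC of 0.11 lay below the 0.22 of all genes. No member and no other gene reached an adjusted p under 0.05 in edgeR, where 2775 genes had an unadjusted p under 0.05 and DESeq2 gave an adjusted p under 0.05 to 834 genes.

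The comparison of OVX-AS-IV-High with OVX asks what differs under treatment. None of the 9 enzymes passed an unadjusted p under 0.05 in edgeR, against 6.45% of all genes. The largest difference was that of Idi1, with a log2FC of 0.42 (SE 0.21, edgeR adjusted p = 0.826), followed by Hmgcs1 with 0.29 (SE 0.21, edgeR adjusted p = 0.921). Dhcr7 had a log2FC of -0.18 (SE 0.13, edgeR adjusted p = 0.921). Its treated libraries lay below all OVX libraries without overlap, as in 12.7% of all genes in either direction, and this comparison uses the same 3 OVX libraries as the one with Sham. Fdft1 at -0.17, Sqle at -0.12, Mvd at -0.06, Cyp51 at 0.05, Lss at 0.02 and Fdps at 0.01 completed the set. Without OVX-AS-IV-High replicate 3, in which both genes were at the group's lowest, Hmgcs1 (log2FC 0.49) and Idi1 (log2FC 0.59) passed the unadjusted threshold.

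Between OVX-AS-IV-High and Sham, which differ in both surgery and treatment, again none of the 9 enzymes passed in edgeR, against 17.6% of all genes. Idi1 came nearest with a log2FC of 0.47 (SE 0.21, edgeR adjusted p = 0.290) and Fdft1 next with -0.29 (SE 0.14, edgeR adjusted p = 0.315). In CPM, Fdft1 was the only member without overlap between these groups, as were 19.9% of all genes in either direction. Hmgcs1 had a log2FC of 0.35 (SE 0.21, edgeR adjusted p = 0.420). Dhcr7 at 0.19, Mvd at -0.18, Sqle at -0.14, Fdps at 0.12, Lss at -0.11 and Cyp51 at -0.05 differed less. Idi1 crossed the unadjusted threshold when counts were tested with DESeq2 (log2FC 0.48, adjusted p = 0.211), with RLE factors and without the filter on low counts, and also in edgeR without Sham replicate 3 (log2FC 0.62). Without OVX-AS-IV-High replicate 3, Hmgcs1 (log2FC 0.55) and Idi1 (log2FC 0.64) both passed, and without OVX replicate 2 Fdft1 did (log2FC -0.29).

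Intervals of the fold show how precise these differences are. In each comparison, the 95% interval of the fold lay inside 2-fold in both directions for all 9 members, which held for 66.8%, 71.4% and 67.0% of all genes in the comparisons of OVX with Sham, of treated with OVX and of treated with Sham rats. Over the 27 intervals, the lowest bound was 0.595-fold, for Sqle, and the highest 1.94-fold, for Idi1. A limit of 1.5-fold in both directions held for 18 of the 27.

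The remaining 12 enzymes of the route, listed separately, were all tested. In OVX vs. Sham 1 of them passed, Sc5d, the desaturase that makes the substrate of Dhcr7. Sc5d stood at 5.05, 3.57 and 2.93 FPKM in Sham, 5.45, 5.32 and 5.02 in OVX rats and 5.16, 6.76 and 5.78 in treated rats. Every ovariectomized library thus lay above all 3 Sham libraries except that OVX replicate 3 (5.02 FPKM) fell just under Sham replicate 1 (5.05 FPKM), on the FPKM scale. Its log2FC was 0.43 in OVX vs. Sham (SE 0.18, edgeR adjusted p = 0.278) and 0.63 between treated and Sham rats (SE 0.18, edgeR adjusted p = 0.143), with 0.20 between the ovariectomized groups. Over all 21 enzymes, 2 (9.52%) were thus called in OVX vs. Sham, where 16.4% of all genes were. Pmvk, the phosphomevalonate kinase, was lower in treated than in Sham rats (log2FC -0.28, edgeR adjusted p = 0.276). Sc5d and Pmvk were the 2 of the 12 called there, against 17.6% of all genes. None of the 12 passed in OVX-AS-IV-High vs. OVX, against 6.45% of all genes.

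**Figure D2:**
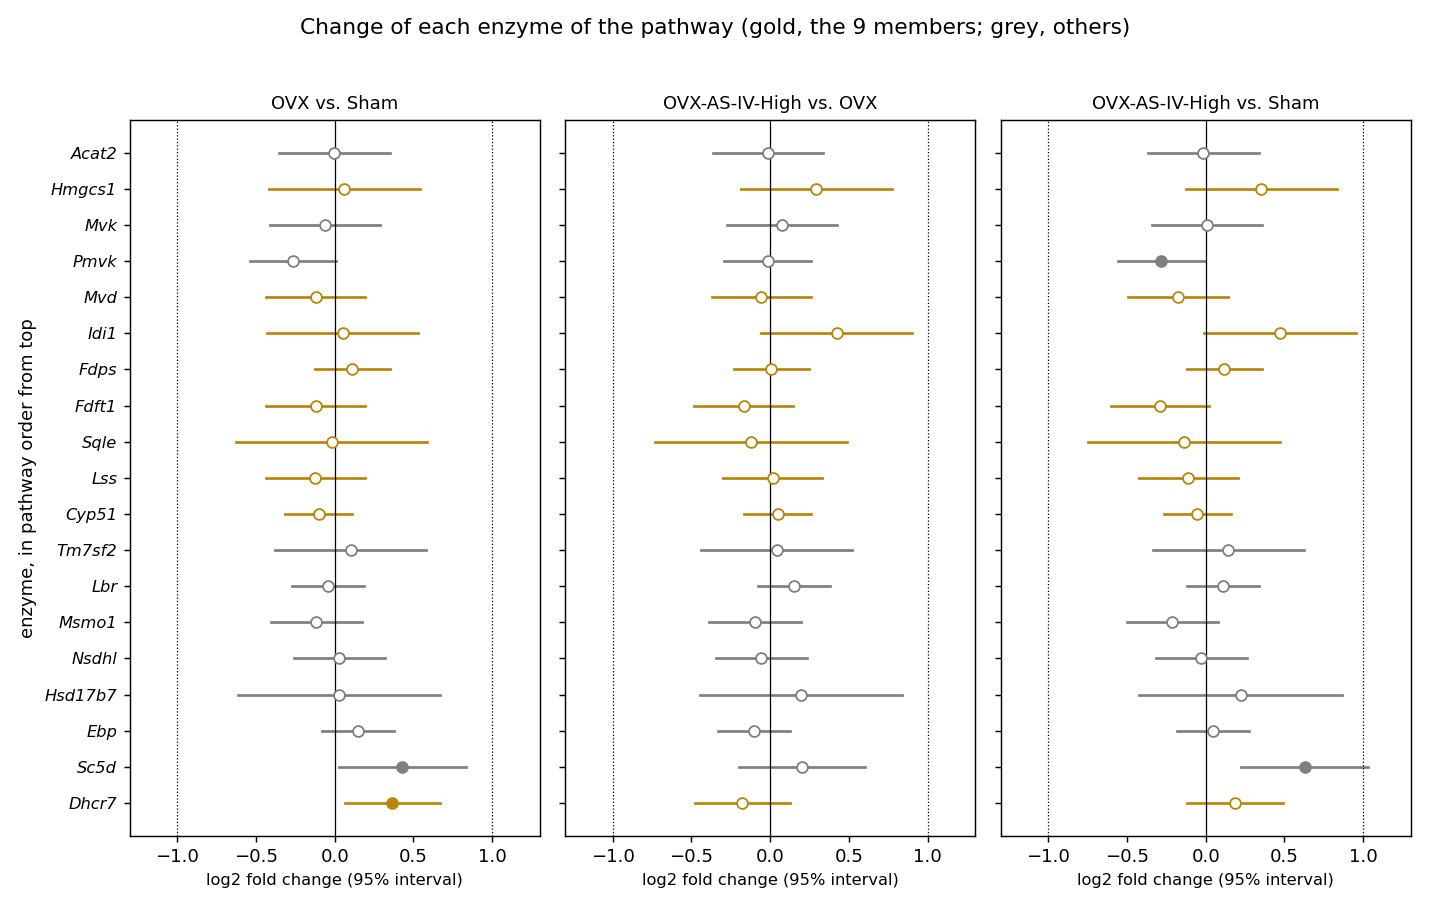
Log2 fold change (horizontal axis) with its 95% interval for 19 enzymes in pathway order in the 3 comparisons, with the 9 members in gold, 10 others in grey, filled points for an unadjusted p under 0.05 and dotted lines at 2-fold. Filled points are Dhcr7 (0.37) and Sc5d (0.43) in OVX vs. Sham and Sc5d (0.63) and Pmvk (-0.28) between treated and Sham rats. No interval of a member crosses a dotted line.

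Genes that share a regulator often rise and fall together from sample to sample, while the 9 enzymes gave correlations of both signs here. Over the 9 libraries, the 36 pairwise correlations of log2 CPM ranged from -0.67 for Idi1 with Fdft1 to 0.55 for Fdps with Sqle, with a median of -0.08, and 23 were negative. By Pearson's r, none of the 36 had an exact permutation p under 0.05. The smallest Benjamini-Hochberg adjusted value was 0.696 (exact permutation test). By Spearman's rho, Sqle with Lss stood at -0.72 (exact permutation p = 0.0369, adjusted p = 0.712). For Idi1 with Fdft1, Spearman's rho was -0.53, and r was -0.17 without the 2 libraries farthest from the median of Idi1. The correlation of a member with the average of the other 8 lay between -0.74 for Lss and 0.25 for Fdps. Among the 10 genes most like the average of the members were Ankrd40 (r = 0.93 over 9 libraries), Dgkg (0.92), Rab25 (0.92), Ica1l (0.90), Fgf1 (0.90), LOC102553574 (0.90), Pclo (0.88), Sytl4 (0.88) and LOC100910237 (0.86), a description among 16874 genes with no test.

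**Figure D3:**
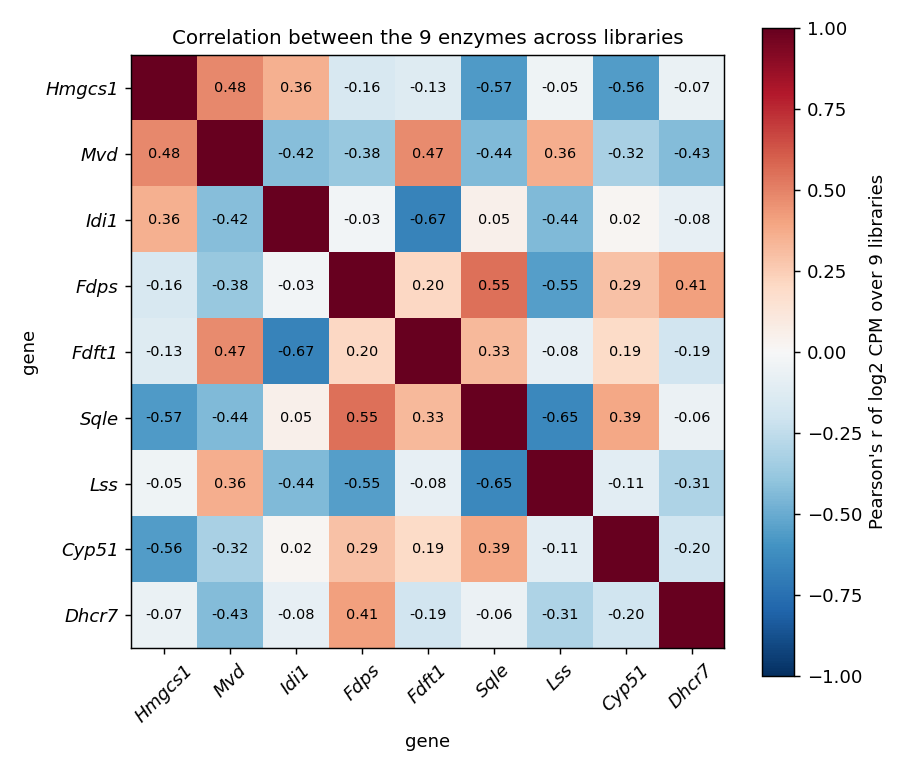
Pearson's r of log2 CPM over the 9 libraries for each pair of the 9 enzymes, from blue (-1) to red (1), with r printed in each cell. Both signs are scattered over the grid, 13 positive and 23 negative, between -0.67 and 0.55.

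Promoter windows are shown because a shared element is the usual ground for expecting these genes to move together. RefSeq windows of assembly GRCr8, from 250 bases before to 50 after the start, matched 7 of the 9 genes, all except Fdft1 and Sqle. CCAAT, the box bound by NF-Y, a cofactor of SREBP, was found on either strand in 5 of the 7, and in 37.5% of all 33469 windows. GGGCGG, the Sp1 box, was found in 6 of the 7 and in 33.1% of all windows. The letters TCACNCCA, a core of the sterol response element, were found in 0 of the 7 and in 3.89% of all windows. Below, capitals mark the box, read on the gene's own strand, where ATTGG is CCAAT on the opposite strand.
Hmgcs1 (chr2:53382106-53382130, plus strand): ttttcctcccATTGGcagagagtgg
Mvd (chr19:67414995-67415019, minus strand): cccgtcgcctATTGGacggcacggg
Idi1 (chr17:66547576-66547600, minus strand): cctccagctgATTGGtgagcccggg
Lss (chr20:12118298-12118322, minus strand): tgatgctctgATTGGccgcgctcgc
Fdps (chr2:176804932-176804956, minus strand): ccaccctttcATTGGccagtcgtca
The match shown is the one farthest upstream in each window. It begins 188 bases upstream of the start in Hmgcs1, 130 in Fdps, 82 in Lss, 66 in Idi1 and 35 in Mvd. A further match on either strand begins 133 bases upstream in Hmgcs1, 85 in Fdps, 35 in Idi1 and 2 in Mvd. These are matches of letters only, and no binding was measured.

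Levels of individual members correlated with marker genes of particular cell types in these samples. Correlations over the 9 libraries were computed between the 9 members and the log2 summed CPM of 11 marker lists, 99 relations chosen after the data had been seen, in which 11 had an exact permutation p under 0.05 and 1 remained after Benjamini-Hochberg adjustment. That relation was Mvd with 9 skeletal muscle markers, among them Acta1, Ckm and Myh4. Summed muscle levels were 8649, 6057 and 1517 CPM in Sham, 3113, 1793 and 1489 in OVX rats and 4465, 1975 and 523 in treated rats. In FPKM, Mvd put the libraries of each group in the same order, whereas in CPM the first 2 Sham libraries changed places (21.1 and 21.3 CPM). Pearson's r was 0.97 (exact permutation p = 7.16e-05, adjusted over 99 relations p = 0.00709) and Spearman's rho was 0.90 (exact permutation p = 0.00203, adjusted p = 0.152). It was 0.97 without the 2 libraries farthest from the median muscle level and 0.96 within groups, and leaving out any library kept it between 0.96 and 0.98. Muscle markers themselves had a median log2FC of -1.32 in OVX vs. Sham, beside the -0.12 of Mvd. Of the 9 muscle markers 0 passed in edgeR, against 16.4% of all genes. Mvd also correlated negatively with osteoclast markers, with an r of -0.89 and a rho of -0.72 (exact permutation p = 0.00298 and 0.0369, adjusted p = 0.0748 and 0.389). This was not particular to osteoclasts. For Mvd, r was -0.84 with adipocyte, -0.73 with osteoblast and -0.67 with proliferation markers (exact permutation p = 0.00551, 0.0317 and 0.0345, adjusted p = 0.0880, 0.341 and 0.341). Besides muscle, only neutrophil markers had a positive r with Mvd (0.17). All these measures are shares of the same library, and the source of Mvd transcript was not tested.

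For other members, 3 further relations had a Pearson's r above 0.84 without passing the adjustment. Dhcr7 followed the 6 measured B lineage markers (among them Cd79a, Cd79b and Pax5), whose sum was 632, 614 and 764 CPM in Sham, 1031, 1068 and 1038 in OVX rats and 718, 774 and 986 in treated rats. As with Dhcr7, all OVX libraries stood above all others. Pearson's r was 0.89 and Spearman's rho 0.80 (exact permutation p = 0.00302 and 0.0138, adjusted over 99 relations p = 0.0748 and 0.274), with r of 0.84 without the 2 libraries farthest from the median and 0.60 within groups (exact permutation p = 0.273). In edgeR all 6 B lineage markers passed an unadjusted p under 0.05 as higher in OVX than in Sham, against 8.16% of all genes, and 4 of the 6 passed as lower in treated than in OVX rats, against 2.03% of all genes. Whether the difference in Dhcr7 is carried by B lineage cells was not tested.

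Sqle followed the 7 erythroid markers, with an r of 0.84 and a rho of 0.88 (exact permutation p = 0.00392 and 0.00308, adjusted p = 0.0776 and 0.152). Within groups its r was 0.91, but without the 2 libraries farthest from the median it was 0.68 (exact permutation p = 0.0871). The erythroid sum was lowest in Sham replicate 1 and highest in Sham replicate 3, at 3953 and 6949 CPM, where Sqle stood at 3.25 and 6.13 FPKM. Sqle followed the 8 proliferation markers to a like degree, with an r of 0.84 (exact permutation p = 0.00123, adjusted p = 0.0607). Hmgcs1 followed the neutrophil markers, with an r of 0.84 and a rho of 0.75 (exact permutation p = 0.00622 and 0.0255, adjusted p = 0.0880 and 0.361). Within groups the r of Hmgcs1 was 0.81, and leaving out any single library kept r between 0.75 and 0.89. Without the 2 libraries farthest from the median, r was 0.53 (exact permutation p = 0.218). OVX-AS-IV-High replicate 1 had both the highest neutrophil sum, 19622 CPM, and the highest Hmgcs1.

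**Figure D4:**
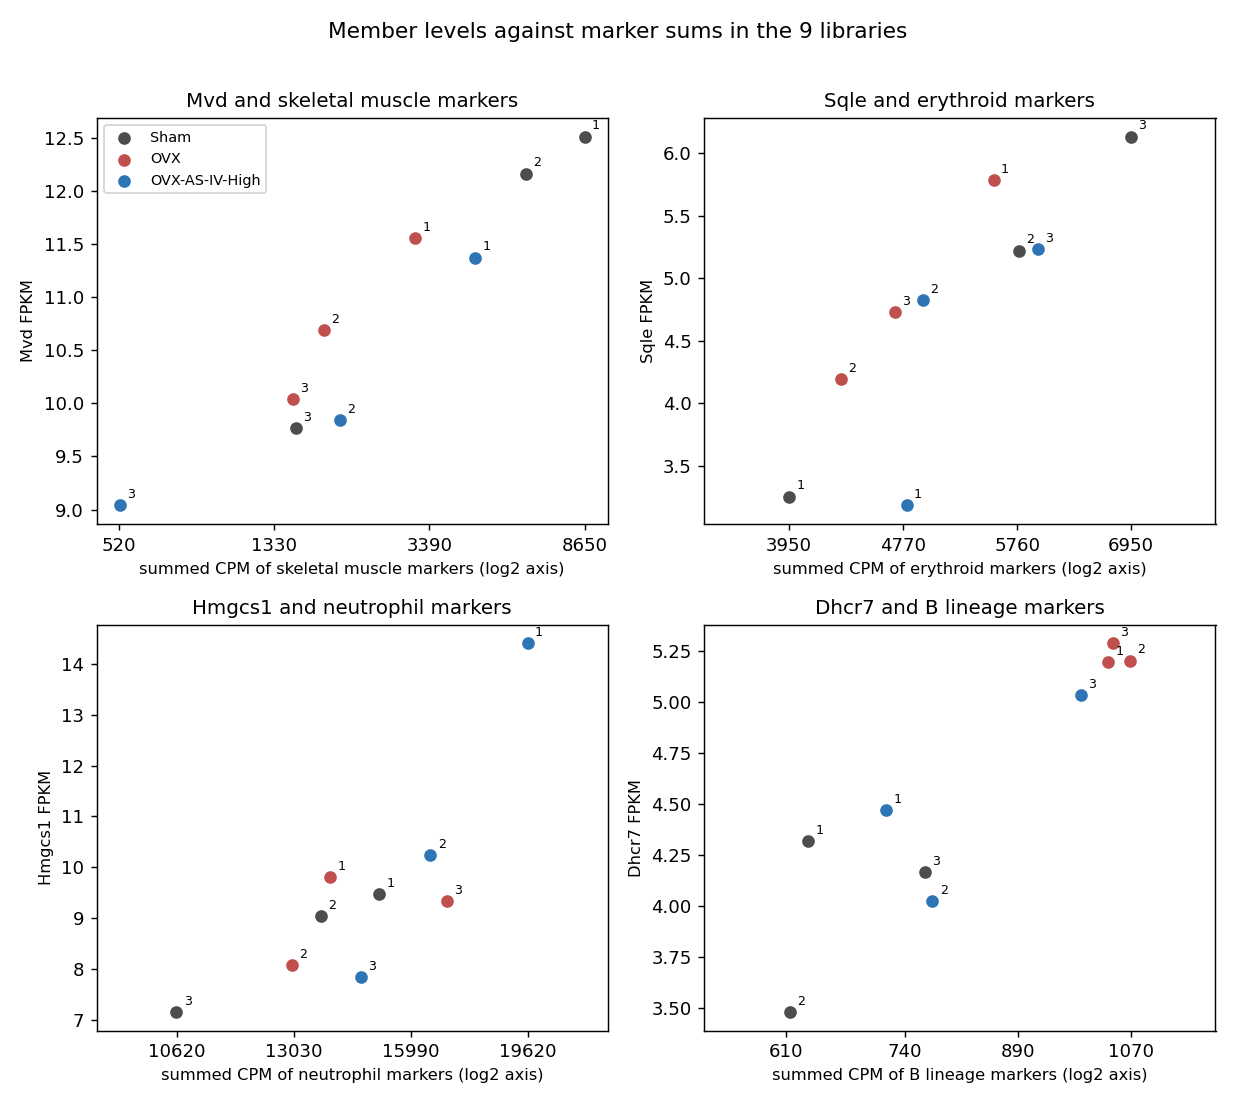
FPKM of 4 members (vertical axes, not starting at 0) against the summed CPM of a marker list (horizontal axes, log2 scale) in the 9 libraries, coloured by group and numbered by replicate. Mvd rises with muscle markers across all groups (r = 0.97), whereas for Dhcr7 the 3 OVX libraries form the upper right corner with B lineage sums of 1031 to 1068 CPM.

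Further lists covered the genes around the route. Of the 7 genes that process SREBP and sense sterols, none passed in OVX vs. Sham, against 16.4% of all genes. In each comparison with OVX-AS-IV-High 1 passed, against 6.45% of all genes for OVX and 17.6% for Sham. That gene was Mbtps2, a protease that releases SREBP, with a log2FC of 0.39 against OVX (edgeR adjusted p = 0.737) and 0.50 against Sham (edgeR adjusted p = 0.169). Srebf2, which encodes SREBP-2, had log2FC of 0.06, 0.04 and 0.09 and Insig1, a sterol-sensing retention factor and SREBP target, 0.22, 0.06 and 0.28 in the 3 comparisons. Among 7 tested genes of cholesterol uptake and transport, none passed in OVX vs. Sham, against 16.4% of all genes. Stard4, a sterol carrier, was higher in treated than in Sham rats (log2FC 0.41, edgeR adjusted p = 0.213). Stard4 was the only 1 of the 7 called there, against 17.6% of all genes.

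Genes of sterol storage and efflux had calls in both comparisons with Sham. Of 9 genes of cholesterol esterification, efflux and LXR signalling, 4 passed in OVX vs. Sham and 4 between treated and Sham rats, against 16.4% and 17.6% of all genes, while none passed in OVX-AS-IV-High vs. OVX, against 6.45%. Their median log2FC against Sham was -0.02 and -0.04, beside -0.01 over all genes in both comparisons, since some were higher and others lower. Soat1, which esterifies cholesterol for storage, stood at 5.17, 7.01 and 9.13 FPKM in Sham, 10.7, 16.3 and 13.0 in OVX rats and 10.3, 13.0 and 14.5 in treated rats. Both ovariectomized groups thus lay above Sham without overlap, with log2FC of 0.88 (SE 0.23, edgeR adjusted p = 0.154) and 0.83 (SE 0.23, edgeR adjusted p = 0.139). Lpl, the lipoprotein lipase, was higher by 0.58 and 0.77 and Lcat, the plasma esterifying enzyme, lower at -0.74 and -1.01. Abcg1, a sterol exporter, passed in OVX vs. Sham alone at 0.36, and Nr1h3, encoding LXR alpha, passed in OVX-AS-IV-High vs. Sham alone at -0.40.

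Of 7 fatty acid synthesis genes, which SREBP-1 rather than SREBP-2 chiefly drives, 3 passed in OVX vs. Sham, all higher, against 8.16% of all genes called as higher. Over the 7, the median log2FC was 0.30 and the lowest that of Me1, the malic enzyme, at -0.55, which did not pass. Scd, the stearoyl-CoA desaturase, stood at 1.67, 1.00 and 7.2 FPKM in Sham, 11.5, 9.74 and 19.7 in OVX rats and 8.15, 26.1 and 30.5 in treated rats, with log2FC of 2.03 and 2.71 against Sham. Fasn, the fatty acid synthase, was higher by 0.68 (SE 0.18, edgeR adjusted p = 0.153) in OVX and 0.62 (SE 0.18, edgeR adjusted p = 0.142) in treated rats, and Acaca by 0.46 in OVX. Adipocyte markers moved in the same direction: all 7 were measured, and 6 passed as higher in OVX vs. Sham, against 8.16% of all genes. Between treated and Sham rats 5 passed as higher, against 17.6% of all genes in either direction. The adipocyte sum was 429 to 645 CPM in Sham, 643 to 888 in OVX rats and 645 to 886 in treated rats. The part of adipocytes in Scd, Fasn, Lpl and Soat1 was not tested. All of these calls rest on unadjusted p-values, with adjusted p of at least 0.101 in edgeR.

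Among 12 genes that use isoprenoids for prenylation, dolichol or ubiquinone, none passed in OVX vs. Sham, against 16.4% of all genes, and 3 passed as higher between treated and OVX rats, against 6.45% of all genes in either direction. These 3 were Chm, a Rab escort protein (log2FC 0.62, edgeR adjusted p = 0.652), Pggt1b, the beta subunit of the type I geranylgeranyl transferase (0.59, edgeR adjusted p = 0.652), and Ggps1, the synthase of geranylgeranyl diphosphate (0.27, edgeR adjusted p = 0.772). Chm stood at 4.11, 3.09 and 3.78 FPKM in Sham, 4.83, 4.12 and 4.18 in OVX rats and 8.23, 6.71 and 4.69 in treated rats, so that its replicate 3 overlapped with OVX. Against Sham, Chm (0.85), Pggt1b (0.53), Ggps1 (0.37) and Dhdds (0.27), of dolichol synthesis, were higher in treated rats. Coq2, of ubiquinone synthesis, was lower at -0.37. These were the 5 of the 12 called there, against 17.6% of all genes in either direction. Of 5 enzymes of oxysterol and bile acid synthesis, Ch25h was lower in OVX than in Sham (-1.08) and in treated rats than in Sham (-1.01). Its level rested on only 15 to 55 counts a library. Cyp11a1, which starts steroid hormone synthesis, was higher in OVX (1.65), on only 2 to 32 counts a library. In OVX vs. Sham 2 of the 5 were called, against 16.4% of all genes. Between treated and Sham rats 1 of the 5 was called, against 17.6%.

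**Figure D5:**
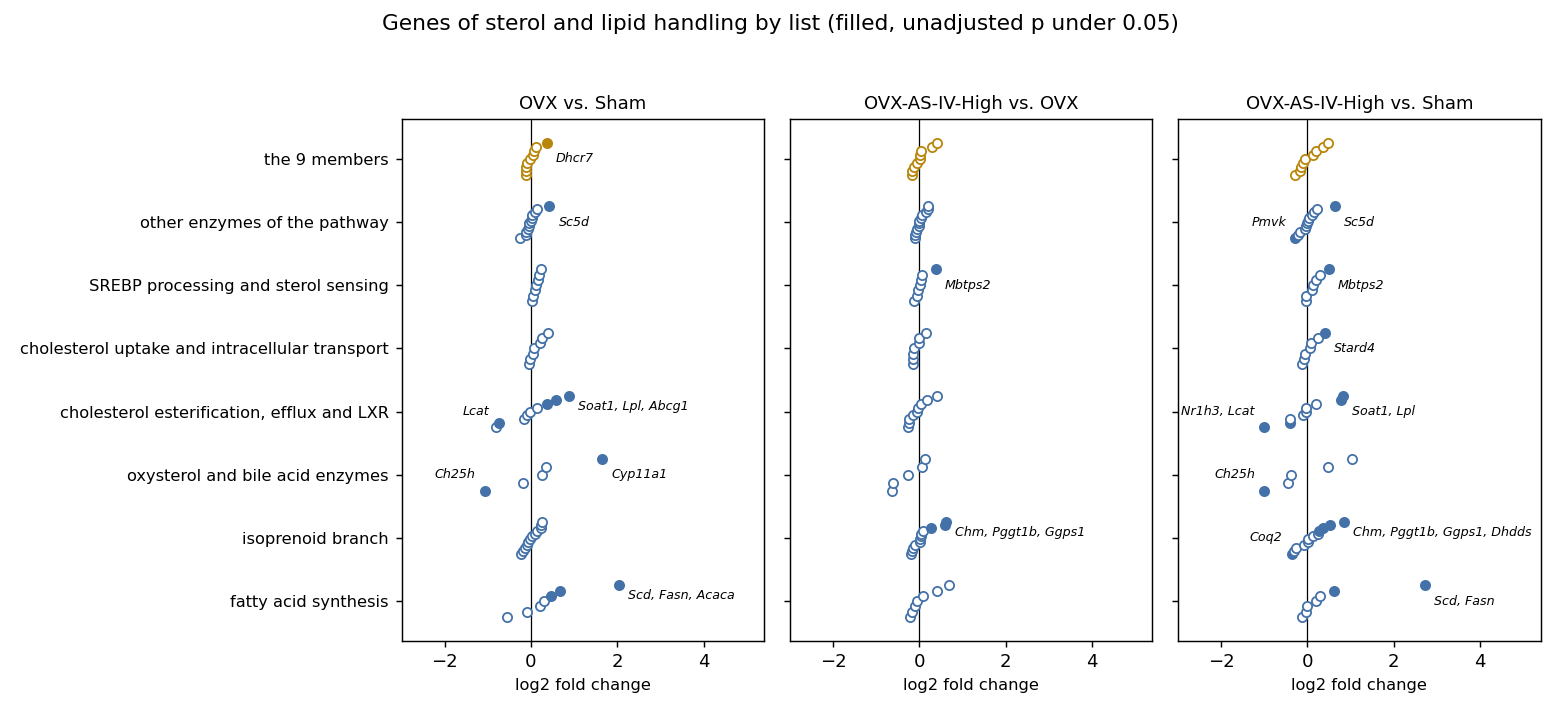
Log2 fold change (horizontal axis) of each tested gene of 8 lists (rows) in the 3 comparisons, filled and named where the unadjusted p was under 0.05. The 9 members stay between -0.29 and 0.47 in all 3 panels, while Scd reaches 2.71 and Soat1 0.88.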

How the data were processed

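Per the labels, poly(A) RNA of bone was sequenced on dUTP libraries. The authors removed poor reads, mapped with Tophat and Bowtie2 and quantified with eXpress, and deposited a table of whole-number counts and a table of FPKM. FPKM were the counts divided by a fixed gene length and the library total. The strand setting is not given in the sources used here, and the submitters' processing notes list build mRatBN7.2. Counts were tested by the quasi-likelihood test of edgeR 4.0.16 (TMM, minimum count of 10, all 9 libraries in a single fit of 16874 genes, common biological coefficient of variation 0.256), with Benjamini-Hochberg adjustment over all genes. Correlations used log2 CPM with a prior count of 2 and exact permutation. That permutation shuffled libraries without regard to group, except for p-values given within groups. Members and lists were chosen with earlier results of these data known. All members were named, every further enzyme was named or counted, and other genes were named at an unadjusted p under 0.05, besides a few fixed genes such as Insig1, Srebf2 and Fasn. Some genes that this rule names are not reported here. Alternatives were DESeq2 1.42.0, limma 3.58.1 on log2(FPKM + 1) and log2(FPKM + 0.1), RLE factors, library totals alone, no filter, only the groups compared, a replicate block and each library left out. Between OVX and OVX-AS-IV-High, deviations of same-numbered libraries from their group means correlated at 0.31, 0.158 and 0.13. With Sham they correlated at 0.20, -0.16 and 0.25 for OVX and at 0.31, -0.16 and 0.44 for OVX-AS-IV-High. Differently numbered libraries were not compared, so these values cannot show whether the number pairs libraries. The reported fit does not use the number. GRCr8 windows came from RefSeq.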

Additional observations from a re-analysis of the deposited data

How the results depend on the processing

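Of 648 alternative values, 587 kept their direction and side of the threshold (or stayed within the replicate spread), 2 lost and 10 gained an unadjusted call, 20 moved and 29 reversed. Every reversed value belonged to a member with an absolute log2FC of at most 0.14, and none of these was called. Sqle in OVX vs. Sham turned to 0.0097 with library totals alone, 0.032 and 0.044 with limma on log2(FPKM + 1) and log2(FPKM + 0.1), and 0.038 and 0.012 with the replicate block in all libraries and in the groups compared. In OVX-AS-IV-High vs. OVX, Fdps turned to -0.026, -0.028 and -0.029 and Lss to -0.022, -0.0083 and -0.0078 with library totals alone and both limma fits. In OVX-AS-IV-High vs. Sham, 1 member was called with RLE factors, without a filter, with DESeq2 (Idi1 each time) and with the replicate block in the groups compared (Hmgcs1). The block changed no other call. The cause was not tested. An adjusted p under 0.05 was reached by 0 genes in edgeR in all 3 comparisons and by 834, 37 and 1009 genes in DESeq2, and by 21, 0 and 58 in edgeR with the replicate block in all libraries, no member among them. Of all genes called between treated and OVX rats, 746 were higher and 343 lower in the reported fit, against 588 and 510 with library totals alone.

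Leaving out each library gave 0 to 1 members called in OVX vs. Sham, 0 to 2 between treated and OVX rats and 0 to 2 between treated and Sham rats. The median log2FC of the members ranged from -0.051 to 0.092 in the first and from -0.094 to 0.061 in the last. Genes with an unadjusted p under 0.05 numbered 1763 (without Sham replicate 2) to 4332 (without Sham replicate 3), 679 to 1429 (without OVX-AS-IV-High replicates 2 and 3 in turn) and 1925 to 3995 (without Sham replicates 2 and 3 in turn). In OVX vs. Sham, Hmgcs1 ranged from -0.051 to 0.15, Idi1 from -0.037 to 0.20 and Sqle from -0.26 to 0.18. In OVX-AS-IV-High vs. OVX, Mvd ranged from -0.16 to 0.024, Fdps from -0.080 to 0.083, Sqle from -0.25 to 0.059, Lss from -0.088 to 0.15 and Cyp51 from -0.012 to 0.12. In OVX-AS-IV-High vs. Sham, Sqle ranged from -0.37 to 0.061 and Cyp51 from -0.11 to 0.019.

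For the 4 relations with marker lists, 48 alternatives added after seeing the data left 45 on the same side of an unadjusted p of 0.05. The 3 lost were Sqle and Hmgcs1 without the 2 outermost libraries and Dhcr7 within groups.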
